A study of Mus musculus with 2 samples.

Results

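Naive-like CD4 T cells of the fatty, inflamed liver were chosen from 2 droplet libraries by their transcripts. A member had at least 1 UMI (unique molecular identifier, 1 captured transcript) of Cd3d, Cd3e or Cd3g, at least 1 of Cd4 and at least 1 of Lef1 or Igfbp4. It had none of Foxp3, Cd8a, Cd8b1, Il4 or Zbtb16, and fewer than 3 over the cycling genes Mki67, Top2a and Birc5. The rule found 282 members among 18867 kept cells, which were barcodes with at least 300 genes and under 20% mitochondrial UMIs. The library labelled PKM2FL/FL (FL/FL below) gave 196 members of 9990 kept cells, and the library labelled PKM2ΔMAC (ΔMAC below) gave 86 of 8877.

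Both libraries hold cells of the liver other than hepatocytes (non-parenchymal cells, such as leukocytes and endothelium), obtained by perfusion and a density gradient. Both groups of mice had received the MCD diet, which is deficient in methionine and choline, for 8 weeks. PKM2FL/FL names mice with floxed alleles for PKM2, a pyruvate kinase isoform made from Pkm, and PKM2ΔMAC names mice with that isoform deleted in macrophages. The sources used here name no Cre driver, age or sex and no number of mice per library, and no library from another diet was analysed here. There was 1 library per genotype and no replicate, so no test between genotypes was possible and every difference below describes these 2 libraries. Intervals in parentheses are at 95% and cover counting error only.

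A naive CD4 T cell has left the thymus and has not yet met its antigen. It circulates through blood and lymph nodes, which it enters with the help of the chemokine receptor Ccr7, and the transcription factors Lef1 and Tcf7 keep it in that state. After activation it loses these genes and becomes an effector, memory or helper cell that can remain in tissues such as the liver and express cytokines there.

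The members held 1148916 UMIs in the FL/FL library and 439201 in the ΔMAC library. A member had between 842 and 17462 UMIs in FL/FL, with a median of 5354, and between 1372 and 12407 in ΔMAC, with a median of 4925.5. Levels are given as CPM, the UMIs of a gene summed over the members of a library per 1e6 UMIs of those members. The whole libraries were of like size, with 54519921 and 43134027 UMIs in 10054 and 8949 barcodes, and 17 barcodes occurred in both, none of them among the members. Pkm, the targeted gene, read 260 and 178 CPM in the members and 258 and 171 CPM in all other kept cells, and these 3′ counts do not separate its isoforms. Scrublet marked 18 of the FL/FL members (9.18%) and 6 of the ΔMAC members (6.98%) as doublets, against 4.81% and 3.70% of kept cells.

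Many members lay at the edge of the rule. Exactly 1 Cd4 UMI was found in 113 FL/FL and 51 ΔMAC members, and exactly 1 UMI of Lef1 and Igfbp4 together in 54 and 26. Cells that met every other criterion but had no Cd4 UMI were more numerous than the members, 512 in FL/FL and 300 in ΔMAC. These cells had 27.5 and 37.8 CPM of Ly6c1 and 170 and 133 CPM of the NK receptor gene Klrb1c, where the members had 94.9 and 118 CPM of Ly6c1 and 48.7 and 15.9 CPM of Klrb1c. In B cells (at least 2 UMIs of Cd79a and Cd79b, none of Cd3), which should lack it, a Cd4 UMI was seen in 0.906% of 2318 FL/FL cells (median 3258 UMIs) and 1.09% of 2482 ΔMAC cells (median 2802). Free RNA was not subtracted, so low levels of any gene can come from outside the cell.

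The 5 marker transcripts were Cd4 (ENSMUSG00000023274, chromosome 6, 124864692 to 124888221, mm10), the co-receptor for class II MHC, Lef1 (ENSMUSG00000027985, chromosome 3, 131110471 to 131224356), Igfbp4 (ENSMUSG00000017493, chromosome 11, 99041244 to 99054392), a secreted binder of insulin-like growth factors, Ly6c1 (ENSMUSG00000079018, chromosome 15, 75044018 to 75048830), a surface protein held by a lipid anchor, and Pdlim4 (ENSMUSG00000020388, chromosome 11, 54054928 to 54069014), a PDZ and LIM domain protein. All are protein-coding genes. Cd4, Lef1 and Igfbp4 chose the members, so their levels are a description of the rule. Cd4 read 275 and 321 CPM, Lef1 483 and 474 CPM and Igfbp4 381 and 312 CPM in FL/FL and ΔMAC. The rule did not use Ly6c1 or Pdlim4, but both were taken as markers with earlier results of these data known. Their levels are thus a description as well. Ly6c1 was seen in 58 of 196 FL/FL members (29.6%) and 27 of 86 ΔMAC members (31.4%), and Pdlim4 in 56 (28.6%) and 29 (33.7%). In B cells and neutrophils both were seen in under 1% of cells, for example Ly6c1 in 0.129% of FL/FL B cells. After each cell was thinned to 1000 UMIs, Ly6c1 was found in 9.28% (5.59 to 14.3) of FL/FL members and 11.6% (5.72 to 20.4) of ΔMAC members, and in 0.0437% of FL/FL B cells.

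The label naive held for a portion of the members. Ccr7 was seen in 114 of 196 FL/FL members (58.2%) and 54 of 86 ΔMAC members (62.8%), and in 26.8% (20.7 to 33.6) and 22.1% (13.9 to 32.3) after thinning to 1000 UMIs. It is not particular to T cells: in FL/FL it was seen in 78.6% of B cells, which use it to enter lymph nodes as well, and in 6.63% of neutrophils (at least 20 UMIs of S100a8 and S100a9, median 2233 UMIs). Igfbp4 was seen in 97 FL/FL members (49.5%) and 41 ΔMAC members (47.7%), and of these 78 and 36 also had Ccr7. All others, 99 and 45 members, had Lef1 without Igfbp4, and of these 36 and 18 had Ccr7. Members with Igfbp4 and those without had like depths in FL/FL, with medians of 5266 and 5446 UMIs, and in ΔMAC medians of 5090 and 4299.

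The members that had Lef1 without Igfbp4 carried transcripts of activated and tissue T cells, in both libraries. Ccr7 read 563 CPM (FL/FL) and 465 CPM (ΔMAC) in members with both genes, and 135 and 224 CPM in members with Lef1 alone. S100a4, a calcium-binding protein of effector and memory T cells, read 36.5 and 4.80 CPM against 316 and 988 CPM. Itgb1, the integrin beta chain that rises on memory T cells, went the same way, with 38.4 and 47.98 CPM against 368 and 558 CPM. Rora, a nuclear receptor of helper and innate-like lymphocytes, read 15.4 and 28.8 CPM against 202 and 412 CPM. Cxcr3, the chemokine receptor of type 1 helper cells, was at 7.69 and 4.80 CPM against 123 and 146 CPM. Dapl1, a transcript of resting T cells, went the other way, with 179 and 139 CPM against 38.3 and 36.6 CPM. Ly6c1 and Pdlim4 were present on both sides of the split: Ly6c1 read 129 and 154 CPM against 69.9 and 82.3 CPM, and Pdlim4 98.0 and 134 CPM against 44.95 and 59.5 CPM. S1pr1, also a gene of naive T cells, read 173 and 218 CPM in members with Igfbp4 and 125 and 279 CPM in those without. Members with Igfbp4 thus had Ccr7, Dapl1, Ly6c1 and Pdlim4 at higher levels, and members with Lef1 alone had these together with transcripts of effector and memory cells, so that naive-like is used below only as the name of the rule.

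**Figure D1:**
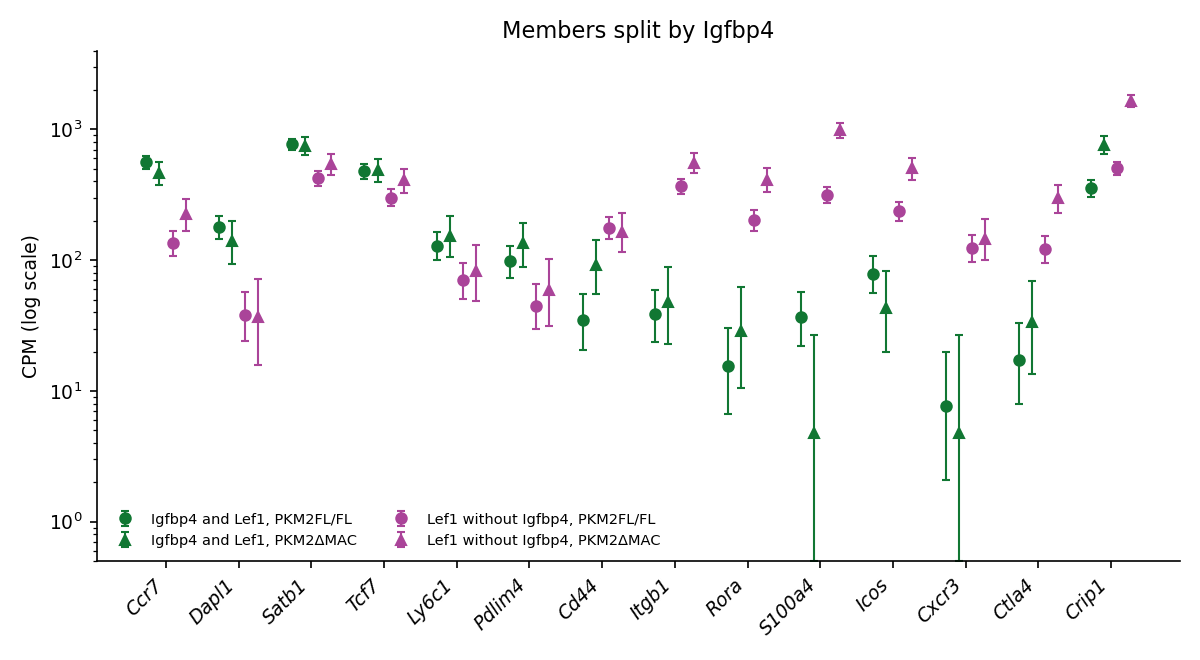
Levels of 14 genes in members with both Igfbp4 and Lef1 (green) and with Lef1 without Igfbp4 (purple), in CPM on a log scale, with circles for PKM2FL/FL and triangles for PKM2ΔMAC and bars for 95% counting intervals (bars that run off the axis reach below 0.5 CPM). S100a4, Itgb1, Rora, Icos, Cxcr3 and Ctla4 sit higher in the purple points of both libraries, and Ccr7 and Dapl1 higher in the green points.

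Members made up a smaller share of the ΔMAC library. They were 1.96% (1.70 to 2.25) of kept cells in FL/FL and 0.969% (0.776 to 1.20) in ΔMAC, a ratio of 0.494 (0.379 to 0.639). The other Cd4 T cells, which met the rule except that they had no Lef1 or Igfbp4 UMI, were 1.69% and 0.732% of kept cells (ratio 0.433, 0.320 to 0.579). Regulatory cells, Cd4 T cells with at least 1 Foxp3 UMI whatever their Lef1 and Igfbp4, numbered 32 and 12 (ratio 0.422, 0.198 to 0.842). Naive-like Cd8 T cells, which had Cd8a or Cd8b1 in place of Cd4, stood higher in ΔMAC, at 10.6% of kept cells against 6.82% (ratio 1.55, 1.40 to 1.71). All 3 Cd4 groups thus had a like ratio, and within them the members were 49.4% (44.4 to 54.4) in FL/FL and 52.8% (44.8 to 60.6) in ΔMAC. Set against naive-like Cd8 T cells alone, the members were 22.3% of the pair in FL/FL (196 of 877) and 8.41% in ΔMAC (86 of 1023). Shares sum to a whole, so fewer of these cells and more of others cannot be told apart, and with 1 library per genotype neither can genotype and preparation.

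**Figure D2:**
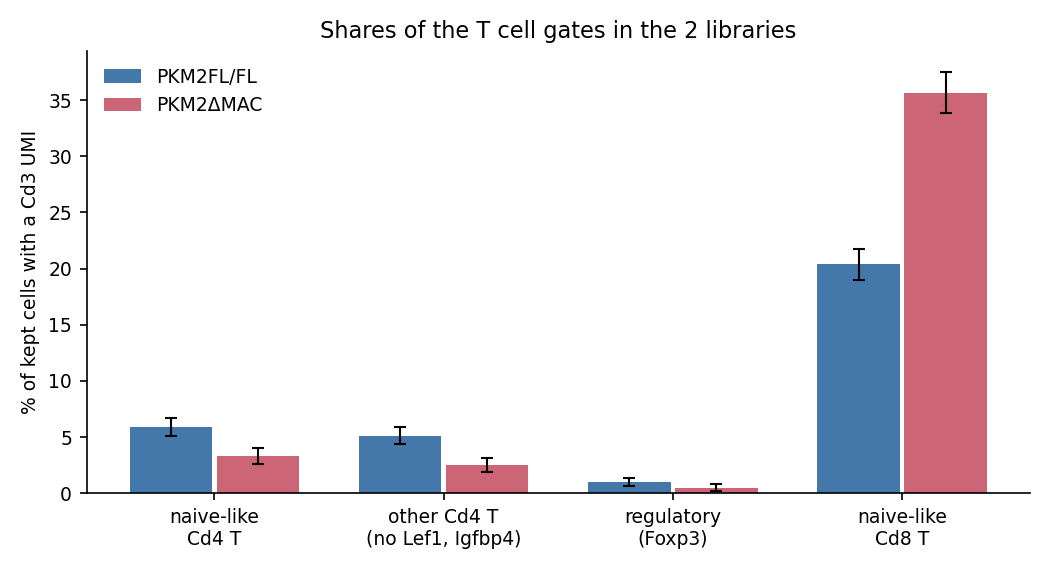
Shares of 4 T cell groups among kept cells with a Cd3 UMI (3343 in PKM2FL/FL, 2628 in PKM2ΔMAC), with 95% counting intervals. The members stand at 5.86% and 3.27%, and naive-like Cd8 T cells at 20.4% and 35.6%.

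Against neighbouring T cells the members stood out by Ly6c1 and Pdlim4. Ly6c1 read 94.9 CPM in the FL/FL members and 118 CPM in the ΔMAC members, against 16.97 and 3.32 CPM in the other Cd4 T cells and 1.90 and 1.76 CPM in naive-like Cd8 T cells. Ly6c2, its neighbour on chromosome 15 (75108158 to 75111970), had the opposite order, with 243 and 121 CPM in the members and 664 and 790 CPM in naive-like Cd8 T cells. Pdlim4 read 68.8 and 95.6 CPM in the members, 4.85 and 0 CPM in the other Cd4 T cells and 3.98 and 1.61 CPM in naive-like Cd8 T cells. Ly6c1 and Ly6c2 encode closely alike proteins, so reads that match both could be split or dropped in counting, which was not tested. Ly6c2 was thus counted in the members too, and it read 341 and 409 CPM in the other Cd4 T cells. The start regions of both genes are shown because these close neighbours of one family differed in order between the members and naive-like Cd8 T cells. They run from 250 bases before to 50 after the most upstream RefSeq start (GRCm38.p6, minus strand), Ly6c1 at chr15:75048788-75049087 and Ly6c2 at chr15:75111922-75112221. Capitals mark bases that differ or have no partner in the alignment, in which 208 of 266 aligned bases (78.2%) were identical.
Ly6c1: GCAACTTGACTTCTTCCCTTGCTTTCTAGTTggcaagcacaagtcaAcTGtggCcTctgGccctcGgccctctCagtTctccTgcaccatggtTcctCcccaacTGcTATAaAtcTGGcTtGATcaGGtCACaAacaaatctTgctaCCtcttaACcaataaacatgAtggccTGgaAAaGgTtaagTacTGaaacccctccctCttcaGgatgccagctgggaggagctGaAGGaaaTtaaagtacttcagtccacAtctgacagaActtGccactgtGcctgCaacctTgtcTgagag
Ly6c2: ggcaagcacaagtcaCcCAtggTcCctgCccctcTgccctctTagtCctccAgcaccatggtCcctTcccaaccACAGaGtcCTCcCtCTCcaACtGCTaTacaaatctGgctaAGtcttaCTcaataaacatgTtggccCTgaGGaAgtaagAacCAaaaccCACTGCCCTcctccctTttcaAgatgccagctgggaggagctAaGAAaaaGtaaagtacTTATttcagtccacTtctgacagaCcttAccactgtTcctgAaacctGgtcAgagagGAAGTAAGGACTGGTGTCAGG
Both genes matched an entry of the table, and the windows hold no measurement of their own.

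Genes at least 2-fold higher in the members than in the other Cd4 T cells in both libraries numbered 15 of 1698 genes (0.883%), and genes at least 2-fold lower 47 (2.77%). The genes of the rule are left out of these counts, as is any gene with 3 or fewer UMIs on both sides of a library. Those farthest apart upward were Dapl1 (104 and 88.8 CPM in FL/FL and ΔMAC members, 8.49 and 3.32 CPM in the other Cd4 T cells), Ly6c1, Actn1, Ccr7, Nsg2, Satb1 and Frat2. Satb1, a chromatin organiser of thymocytes and naive T cells, read 579 and 628 CPM against 202 and 169 CPM. The same rule also named Retnlg and S100a8, neutrophil transcripts, and Gzma, a granzyme of NK and cytotoxic cells. Downward the list was led by Ccr9 (6.96 and 0 CPM against 92.1 and 116 CPM), Siglech (24.4 and 2.28 CPM against 187 and 266 CPM), Grn and Ccl4, followed by Cybb, Mpeg1, Pld4, Tcf4, Nrp1 and H2-Ab1. Siglech and Tcf4 mark plasmacytoid dendritic cells, and H2-Ab1 is a class II MHC chain of antigen-presenting cells. The rule of this group asked for only 1 Cd3 UMI per cell. Whether the group holds cells other than T cells was not tested, so other Cd4 T cells is likewise only the name of a rule.

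Against naive-like Cd8 T cells, 15 of 1394 genes (1.08%) were at least 2-fold higher in the members of both libraries and 6 (0.43%) at least 2-fold lower. After Ly6c1, the higher genes included Tmem64 (138 and 134 CPM against 27.5 and 28.7 CPM), Ly6a (252 and 184 CPM against 63.9 and 41.0 CPM), Maf (163 and 248 CPM against 47.9 and 27.5 CPM), Capg and Ctla4. Maf is a transcription factor of helper T cells, and Ctla4 an inhibitory receptor. The lower genes included those of cytotoxic cells, Klrd1 (72.2 and 41.0 CPM against 230 and 217 CPM), Ly6c2, Ccl5 (1077 and 587 CPM against 2631 and 1467 CPM), Nkg7 and Ctsw. The naive genes lay closer. Tcf7 read 391 and 442 CPM in the members and 316 and 338 CPM in naive-like Cd8 T cells, and Ccr7 335 and 339 CPM against 341 and 419 CPM.

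Against the regulatory cells, 20 of 1873 genes (1.07%) were at least 2-fold higher and 85 (4.54%) at least 2-fold lower. Regulatory cells had more Ikzf2 (1238 and 753 CPM, members 54.8 and 56.9 CPM), the Helios factor of regulatory T cells, more Ctla4 (695 and 1384 CPM, members 73.1 and 164 CPM) and more Tnfrsf18 and Izumo1r. The members had more Bcl2, a survival protein (494 and 487 CPM against 112 and 46.1 CPM), Satb1 and Tcf7 (391 and 442 CPM against 34.0 and 154 CPM). The ΔMAC values of the regulatory cells rest on 12 cells.

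**Figure D3:**
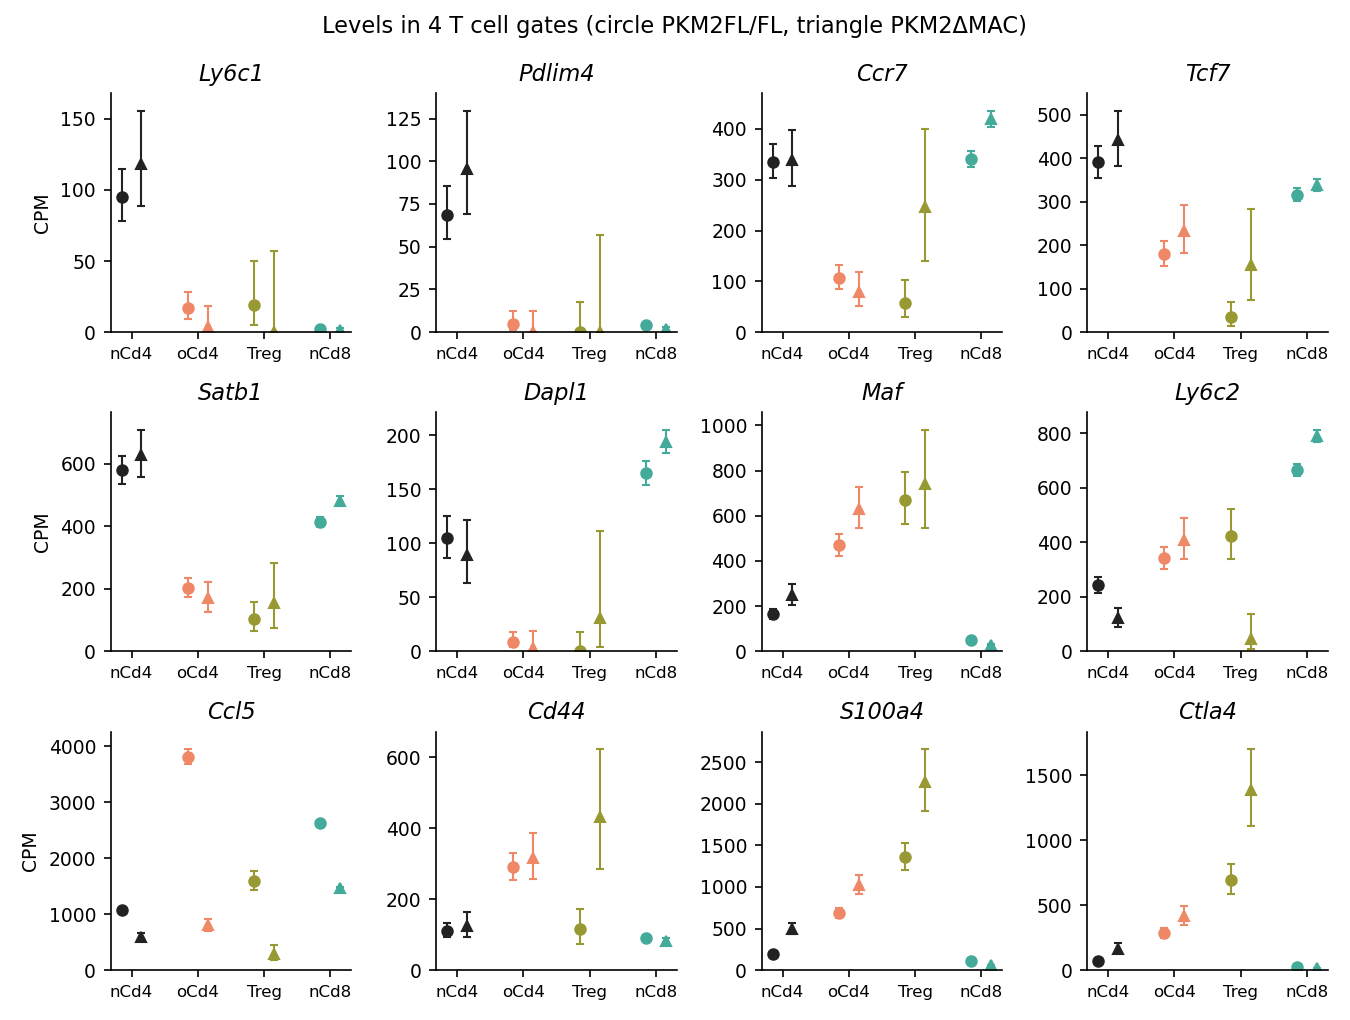
CPM of 12 genes in the members (nCd4), the other Cd4 T cells (oCd4), the regulatory cells (Treg) and naive-like Cd8 T cells (nCd8), with circles for PKM2FL/FL, triangles for PKM2ΔMAC and 95% counting intervals. Ly6c1 and Pdlim4 are at most 19.4 CPM in the other groups drawn. Ccr7, Tcf7 and Satb1 are high in members and naive-like Cd8 T cells, and Cd44 and S100a4 are higher in the other Cd4 T cells than in the members.

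Between the libraries, 33 of 1355 genes (2.44%) differed at least 2-fold in the members, with 12 (0.886%) higher and 21 (1.55%) lower in ΔMAC. A gene was ranked when it reached 100 UMIs in the libraries together and 100 CPM in the higher of them. Without the member that held most UMIs of each gene, 11 of the 12 and all 21 were still at least 2-fold apart. The genes farthest up included small proteins that are counted below among the effector and memory genes. Crip1 and S100a10 are not particular to such cells. In FL/FL they were seen in 80.2% and 81.1% of naive-like Cd8 T cells and in 73.8% and 56.2% of B cells. Crip1, a LIM domain protein (chromosome 12, 113146316 to 113153879), read 431 CPM in FL/FL and 1186 CPM in ΔMAC, a log2 ratio of 1.46 (1.28 to 1.64), and was seen in 127 of 196 and 73 of 86 members. S100a4 (chromosome 3, 90603771 to 90606045) read 189 and 494 CPM (log2 1.39, 1.11 to 1.67) in 47 of 196 and 22 of 86 members, and after thinning to 1000 UMIs in 11.3% (7.25 to 16.7) and 20.9% (12.9 to 31.1). S100a10, the partner of annexin A2, read 368 and 799 CPM (log2 1.12, 0.91 to 1.33). In the other Cd4 T cells these genes were higher in ΔMAC too, at log2 ratios of 0.78, 0.59 and 0.41, as they were in the regulatory cells, where S100a4 read 1360 and 2260 CPM. In all other kept cells they stood at 0.48, 0.20 and 0.24, and in naive-like Cd8 T cells at 0.78, -0.98 and -0.07.

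The higher S100a4 of the ΔMAC members lay in those without Igfbp4. There it read 316 CPM in FL/FL and 988 CPM in ΔMAC (log2 1.64, 1.36 to 1.93). In members with Igfbp4 it read 49.2 and 4.54 CPM, 27 UMIs and 1 UMI, a log2 ratio of -3.44 (-8.80 to -0.84). S100a10 read 223 and 299 CPM with Igfbp4 (log2 0.43, -0.03 to 0.87) and 501 and 1303 CPM without it (log2 1.38, 1.14 to 1.62). Crip1 was higher on both sides, by log2 1.077 (0.77 to 1.39) with Igfbp4 and 1.70 (1.47 to 1.92) without. S100a6 had the reverse order, with 65.7 and 562 CPM in members with Igfbp4 (log2 3.10, 2.55 to 3.68) and 593 and 764 CPM in those without (log2 0.37, 0.09 to 0.63). Among the ΔMAC members, 1 held 50 S100a6 UMIs. S100a6 is also a neutrophil transcript, seen in 96.7% of FL/FL and 99.6% of ΔMAC neutrophils. Of the S100a8 and S100a9 UMIs of the ΔMAC members, 1060 of 1150 lay in 3 members. Whether such members set the S100a6 ratios was not tested.

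Rilpl2, Tomm22 and Slfn1 were also among the 10 genes farthest up, with log2 ratios between 1.02 and 1.27. With cells thinned to 1500 UMIs before the rule, which left 53 and 24 members, S100a4 and Ctla4 had log2 ratios of -0.0794 and -0.86. The ratios after this thinning rest on far fewer UMIs than the main values and are given without intervals, so a change of sign there is not a measured reversal.

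Ctla4 read 73.1 CPM in FL/FL and 164 CPM in ΔMAC (log2 1.16, 0.69 to 1.64), in 26 and 17 members. Ctla4 was also higher in ΔMAC in the other Cd4 T cells (284 and 415 CPM, log2 0.55) and the regulatory cells (695 and 1384 CPM), and lower in all other kept cells together (log2 -0.36) and in naive-like Cd8 T cells (log2 -0.75). The co-receptors Icos and Cd28 were in the same direction, with Icos at 165 and 271 CPM (log2 0.71, 0.37 to 1.05), beside 306 and 561 CPM in the other Cd4 T cells, and Cd28 at 409 and 644 CPM (log2 0.66, 0.44 to 0.87). Icos went opposite ways by Igfbp4, with a log2 ratio of 1.09 (0.72 to 1.46) in members without it and -1.10 (-2.31 to -0.06) in members with it, from 48 and 9 UMIs. Cd28 had 0.91 (0.65 to 1.17) without Igfbp4 and 0.16 (-0.26 to 0.56) with it.

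Several of the genes farthest apart differed in the rest of the liver as well. Tmsb4x, thymosin beta 4, which binds actin monomers, read 9189 and 19690 CPM in the members (log2 1.10) and had a log2 ratio of 0.93 in all other kept cells. Erdr1 stood at 1.26 in the members and 1.71 elsewhere. Cirbp, a cold-inducible RNA-binding protein (chromosome 10, 80165985 to 80172786), read 225 and 68.3 CPM (log2 -1.72, -2.32 to -1.17) in 132 and 25 members, with a log2 ratio of -1.10 in other kept cells and -1.66 in naive-like Cd8 T cells. Lyz2, the lysozyme of myeloid cells, gave 117 UMIs in 34 FL/FL members and 1 UMI in ΔMAC. In other kept cells it read 1230 and 4.74 CPM. Rcbtb2 had log2 ratios of -1.30 in the members and -1.07 in other kept cells. Of the 33 genes at least 2-fold apart, 7 were at least 2-fold apart in the same direction in all other kept cells, and 7 in naive-like Cd8 T cells. By sign alone, 11 of the 12 higher and 17 of the 21 lower genes went the same way in all other kept cells. No such share over all ranked genes is given here, so these counts do not show which differences are particular to the members. The other cells come from the same libraries, so the values stand side by side and are no replicate of each other.

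**Figure D4:**
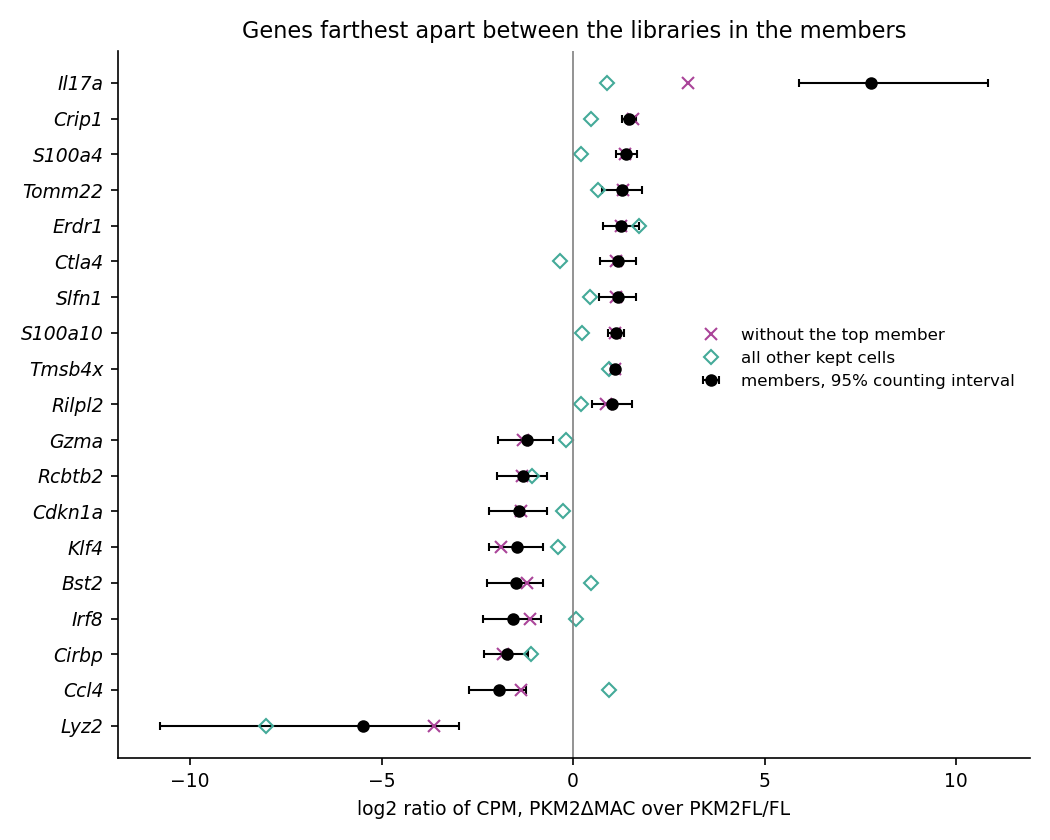
Log2 ratio of CPM, PKM2ΔMAC over PKM2FL/FL, for 19 of the 20 genes farthest apart in the members (black, with 95% counting intervals), beside the ratio without the member with most UMIs of that gene in each library (crosses) and the ratio in all other kept cells (diamonds). Penk, with no UMI in PKM2ΔMAC, is not drawn, and Il17a moves from 7.78 to 3.0 without 1 member.

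Single members set some of these values. Il17a, the type 17 helper cytokine, had 2 UMIs in FL/FL and 168 in ΔMAC, of which 159 came from 1 member with 9184 UMIs. That member had 9 UMIs of Rora, 23 of S100a4, 3 of Cd4 and 2 of Lef1, and none of Igfbp4 or Ccr7. Penk, which encodes the enkephalin precursor, had 139 UMIs in 5 FL/FL members, 109 of them in 1, and none in ΔMAC, a log2 ratio at or below -4.15 when the ΔMAC members are set at a floor of 3 counts in all, and at or below -1.95 without that FL/FL member. Ccl4 and Irf8 had their most UMIs in one and the same FL/FL member, which held 71 of 179 Ccl4 UMIs and 54 of 139 Irf8 UMIs, with 26 UMIs of Siglech, 36 of Bst2 and 21 of Gzma among its 17462 UMIs.

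The gene lists are read beside all genes with at least 20 UMIs, 6635 in all, of which 20% were higher in ΔMAC by a log2 ratio of 0.32 or more and 30.2% lower by as much, with a median log2 ratio of -0.05. Higher and lower are used in this sense for the lists. Of 23 naive and quiescence genes, 7 were higher and 2 lower (median 0.02). The higher ones included Nsg2, a vesicle trafficking gene (82.7 and 166 CPM, log2 1.01, 0.55 to 1.46), S1pr1, the sphingosine phosphate receptor that lets T cells leave lymph nodes (148 and 248 CPM, log2 0.75, 0.39 to 1.10), and Tob1, an antiproliferative factor (114 and 159 CPM, log2 0.48, 0.04 to 0.91). Klf2, the transcription factor that drives S1pr1, read 785 and 995 CPM (log2 0.34, 0.17 to 0.51). Tcf7 (391 and 442 CPM), Satb1 (579 and 628 CPM) and Ccr7 (335 and 339 CPM) had ratios whose intervals included equal levels. With cells thinned to 1500 UMIs before the rule, S1pr1 (-0.50) and Klf2 (-0.24) changed sign, on far fewer UMIs and without intervals.

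Of 24 effector and memory genes, 13 were higher and 5 lower in ΔMAC (median log2 0.44), and the same genes had a median of -0.04 in all other kept cells and -0.35 in naive-like Cd8 T cells. Besides Crip1, S100a4 and S100a10, the higher genes were led by Lgals1, galectin-1 (214 and 419 CPM, log2 0.97), S100a6 (341 and 663 CPM, log2 0.96, 0.73 to 1.18) and Rora (122 and 219 CPM, log2 0.84, 0.45 to 1.23). Among the lower genes, Nkg7, a granule membrane protein of cytotoxic cells, read 236 and 114 CPM (log2 -1.05, -1.52 to -0.61), Cxcr6, a receptor of liver-resident T cells, 83.6 and 41.0 CPM (log2 -1.03, -1.84 to -0.29), Ly6c2 243 and 121 CPM (log2 -1.01, -1.46 to -0.58), and the chemokine Ccl5 1077 and 587 CPM (log2 -0.87, -1.07 to -0.68). Ccl5 went opposite ways by Igfbp4, with a log2 ratio of 0.50 (0.15 to 0.83) in members with it and -1.39 (-1.65 to -1.14) in members without. Nkg7 had -0.09 (-1.09 to 0.83) with Igfbp4 and -1.24 (-1.79 to -0.73) without. For Ly6c2 and Cxcr6 the intervals with Igfbp4 also included equal levels. NK cell markers moved with the lower genes, with 282 UMIs in the FL/FL members and 39 in the ΔMAC members. Without members that had 3 or more UMIs of NK or plasmacytoid dendritic cell markers, Ccl5 had a log2 ratio of -0.85 (-1.14 to -0.56) and Nkg7 of -0.88 (-1.57 to -0.23), while the intervals of Ly6c2 (-0.40, -1.08 to 0.24) and Cxcr6 (-0.57, -1.48 to 0.28) included equal levels. With cells thinned to 1500 UMIs before the rule, Lgals1 (-1.03) and Ccl5 (1.39) changed sign, on far fewer UMIs and without intervals.

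Of 14 type 1 helper genes, 1 was higher and 9 lower in ΔMAC (median -0.57). Ifng, the cytokine of these cells, read 170 CPM in 49 FL/FL members and 91.1 CPM in 13 ΔMAC members (log2 -0.90, -1.43 to -0.40). In members without Igfbp4 it read 308 and 110 CPM (log2 -1.49), and in members with it 18.2 and 72.6 CPM (log2 1.99, 0.76 to 3.29, from 10 and 16 UMIs). Ccl4 read 156 and 41.0 CPM (log2 -1.93, -2.71 to -1.23). Il18r1, a chain of the receptor for interleukin 18, was the higher one, at 111 and 200 CPM (log2 0.86, 0.45 to 1.26).

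Of 37 type I interferon response genes, 4 were higher and 22 lower (median -0.40), and the same genes had medians of -0.19 in all other kept cells and -0.36 in naive-like Cd8 T cells. Ifit1, which binds foreign RNA, had 63 UMIs in 12 FL/FL members and 7 in 5 ΔMAC members (54.8 and 15.9 CPM). Ifit3, its partner, had 47 UMIs in 10 members and 3 in 3 members. Bst2, tetherin, read 121 and 43.3 CPM (log2 -1.48, -2.26 to -0.79). Slfn1, a Schlafen family gene, was higher, at 72.2 and 162 CPM (log2 1.16, 0.68 to 1.64).

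The type 1 helper and interferon values moved together with marker transcripts of other cell types. The plasmacytoid dendritic cell markers summed to 443 UMIs in the FL/FL members, at most 162 in 1 of them, and 63 in the ΔMAC members, at most 9 in 1 (386 and 143 CPM). None of the 8 markers was at 0 in FL/FL, and Ccr9 and Cox6a2 were at 0 in ΔMAC. The 6 NK cell markers summed to 282 UMIs in 56 FL/FL members and 39 in 23 ΔMAC members (245 and 88.8 CPM), and Klra8 alone was at 0, in ΔMAC. At least 3 UMIs over both lists were found in 44 FL/FL and 8 ΔMAC members. Those 44 held 98 of the 110 Ifit1 and Ifit3 UMIs of the FL/FL members, and their interferon genes summed to 6921 CPM, against 3632 CPM in the other FL/FL members and 4133 CPM in the other ΔMAC members. Bst2 and Irf8 are on the plasmacytoid list and answer to interferon too, so the 2 lists are not independent. Each gave 139 of the 443 plasmacytoid UMIs in FL/FL, and they gave 19 and 18 of the 63 in ΔMAC. Leaving out members by that list thus also takes out interferon UMIs. Without such members, a choice made after the values were seen, the interferon median was 0.0865 and the type 1 helper median -0.12. Ifit1 then read 10.5 and 13.3 CPM and Ccl4 22.2 and 42.4 CPM, while Ifng was lower in ΔMAC at 90.2 and 42.4 CPM (log2 -1.09, -1.97 to -0.29) and S100a4 higher at 213 and 482 CPM (log2 1.18, 0.87 to 1.49). The 21 genes at least 2-fold lower became 11, counted on fewer UMIs and given without the number of genes ranked. Whether these transcripts belong to the T cells was not tested.

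Transcripts of further cell types were also present. The 4 listed B cell markers summed to 199 UMIs in 30 FL/FL members and 40 in 7 ΔMAC members. The 6 myeloid markers summed to 2232 and 1298 UMIs, and S100a8 with S100a9 gave 1566 of 1667 of their own UMIs in 6 FL/FL members and 1060 of 1150 in 3 ΔMAC members. Hepatocyte markers gave 1 UMI, of Alb, in FL/FL and none in ΔMAC. At least 3 UMIs of B cell, myeloid, hepatocyte or erythroid markers were seen in 54 FL/FL and 23 ΔMAC members. Without those members the effector and memory median was 0.34, the type 1 helper median -0.29 and the interferon median -0.52.

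Receptor and signalling genes of the T cell were close to the background. Of 30 T cell receptor signalling genes, 5 were higher and 6 lower (median -0.06). Cd5, a brake on receptor signalling, was higher, at 99.2 and 159 CPM (log2 0.68, 0.23 to 1.13), and Vav1, a guanine nucleotide exchange factor downstream of the receptor, lower, at 54.8 and 20.5 CPM (log2 -1.42, -2.61 to -0.40). Of 28 cytokine receptor and signalling genes, 2 were higher and 9 lower (median -0.20), and Ifngr2, a chain of the interferon gamma receptor, read 88.8 and 38.7 CPM (log2 -1.20, -2.03 to -0.45) where it had a log2 ratio of 0.09 in other kept cells. Il7r, the receptor chain for the survival cytokine interleukin 7, read 1011 and 1277 CPM (log2 0.34, 0.19 to 0.48). Of 23 migration and egress genes, 8 were higher and 4 lower (median 0.15). Of 9 regulatory T cell genes, 3 were higher and 3 lower (median 0.05).

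Of 13 NF-kB feedback genes, 1 was higher and 9 lower (median -0.46), with medians of -0.36 in other kept cells and -0.38 in naive-like Cd8 T cells. Rel, an NF-kB subunit of activated lymphocytes, read 197 and 121 CPM (log2 -0.70, -1.17 to -0.27), and Nfkbia, the inhibitor that NF-kB induces, 1118 and 863 CPM (log2 -0.37, -0.54 to -0.21). Of 23 survival and apoptosis genes, 1 was higher and 11 lower (median -0.30), among them 3 of the Gimap family of lymphocyte GTPases: Gimap5 at 166 and 86.5 CPM (log2 -0.94, -1.49 to -0.43), Gimap7 at 62.7 and 27.3 CPM and Gimap3 at 632 and 471 CPM. Of 15 class I MHC and peptide loading genes, none was higher and 6 were lower (median -0.19), against -0.25 in other kept cells. Of 17 glycolysis genes, 1 was higher and 4 lower (median -0.22), and of 37 nuclear respiratory chain genes 12 were higher and 1 lower (median 0.15), with medians of -0.23 and 0.11 for the same genes in other kept cells. The survival genes had a median of -0.29 there, so these 5 lists had medians of the same sign in the members and in the rest of the libraries.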

How the data were processed

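The libraries were made with a 10x Genomics Chromium 3′ kit, per the labels' protocols. The deposited values are raw UMI counts per gene and cell. Per the file headers, the authors' software was Cell Ranger 6.0.0, and the submitters' processing notes name build mm10 and Seurat 4.3.0 without its use. Both files list 27998 genes, and T cell receptor and immunoglobulin constant genes are not among them. The sources used here do not say whether doublets were removed before deposit, and those called by Scrublet (scanpy 1.11.5, expected rate 0.08) were kept in the main values. Free RNA was not subtracted.

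UMIs were summed over members per library and scaled to a total of 1e6. Shares carry exact Clopper-Pearson intervals, CPM exact Poisson and ratios exact conditional intervals at 95%. Only the ratio intervals were checked, on simulated Poisson counts. Those counts follow the model of the interval, so the check does not cover UMIs clustered in single members. PCR duplicates are removed by UMIs, and depth was 5354 and 4925.5 UMIs in the median member. List genes needed 20 UMIs over both libraries, and higher or lower means a log2 ratio of at least 0.32. Genes were named by rule: the genes that define the members, the fixed cell type markers, of each list up to 8 genes with at least 50 UMIs farthest from 0, the 10 highest and 10 lowest ratios, and up to 10 genes in each direction per neighbouring T cell group. Mitochondrial, ribosomal protein, haemoglobin, receptor segment and Y-linked genes, Xist, and genes named Gm with a number or ending in Rik were not named by ranking, which left 1244 genes, but are in the counts. The members, lists and rules were chosen with earlier results of these data known. The plasmacytoid list, the Igfbp4 comparison of log2 ratios and the single members were chosen after their values were seen. Positions are from GENCODE M21. Alternatives changed the doublets, the Lef1 and Igfbp4 minimum, cell filters, depth, scale, minimum counts and members with other lineages' UMIs. A gene, and a choice of members that used it, are not reported here. Python 3.11.15, numpy 2.4.6, scipy 1.17.1 and pandas 2.3.3 were used.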

Additional observations from a re-analysis of the deposited data

How the results depend on the processing

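The ratio of the members' share, ΔMAC over FL/FL, lay between 0.4755 and 0.578 in 7 alternatives. With 50 UMIs and 50 CPM as minimum, 29 genes were at least 2-fold higher and 67 lower, among more genes with lower counts. The number of genes ranked can differ between alternatives and is not given here. This count and the later ones thus cannot be set as shares beside 12 and 21 of 1355. With at least 2 UMIs of Lef1 and Igfbp4, 12 genes were lower, and list medians were -0.0643 (naive), 0.50 (effector and memory), -0.18 (type 1 helper), -0.0660 (interferon) and 0.35 (regulatory). Without Scrublet doublets, receptor signalling gave -0.13 and migration 0.0829. As a mean of the cells' own CPM, interferon gave -0.29 and regulatory -0.22. Thinned to 1500 UMIs before the rule, 53 and 24 members remained, and 1 gene was at least 2-fold higher and 2 lower. Medians were then -0.32 (naive), 1.16 (effector and memory), 0.50 (interferon), 0.0837 (receptor signalling) and -0.19 (migration). All of these but effector and memory changed sign, on far fewer UMIs, which is not a measured reversal. Type 1 helper and regulatory lists gave no value there. Without members with 3 or more other-lineage UMIs, medians were 0.34 (effector and memory), -0.29 (type 1 helper), -0.52 (interferon) and 0.97 (regulatory). Alternatives added after seeing the data were 2. Without each gene's top member, medians were 0.35 (effector and memory), -0.24 (regulatory) and 0.0462 (migration). Without members with plasmacytoid or NK marker UMIs, 11 genes were lower. Medians were then -0.15 (naive), 0.62 (effector and memory), -0.12 (type 1 helper), 0.0865 (interferon), 0.37 (regulatory) and 0.23 (migration). Of these, the naive and interferon medians changed sign.

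Of the named genes at least 2-fold apart, those that changed sign were Ccl4 (0.35 with at least 2 UMIs of Lef1 and Igfbp4, 0.76 without other-lineage members, 0.93 without plasmacytoid or NK members), Gzma (0.0804, 0.75 and 0.53 in that order) and Irf8 (0.51 and 0.56 in the last 2). Thinning turned Ctla4 to -0.86 and S100a4 to -0.0794, and of genes less far apart it also turned, among others, Ly6c1 (-2.18), Cd5 (-1.52), Lgals1 (-1.03), S1pr1 (-0.50), Ccr7 (-0.48), Klf2 (-0.24), Il7r (-0.15), Ly6a (0.63) and Ccl5 (1.39). These thinned values rest on far fewer UMIs than the main values and are given without intervals. Ccr7, at 0.02 in all members, was below 0 in 4 further alternatives. Where no count shows it, the cause was not tested. No paired analysis was possible because each genotype has 1 library, and for the same reason no library could be left out. Low counts limit genes under about 100 UMIs and the 12 regulatory cells of ΔMAC.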

Other observations

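Of 33 immediate early and heat shock genes, 1 was higher in ΔMAC by a log2 ratio of 0.32 or more and 10 lower by as much (median log2 -0.10). Klf4, a zinc finger factor that restrains proliferation, read 131 CPM in 56 FL/FL members and 47.8 CPM in 11 ΔMAC members (log2 -1.46, -2.19 to -0.79). It read 153 and 36.6 CPM in members without Igfbp4 (log2 -2.07, -3.32 to -1.03). In members with Igfbp4 it read 108 and 59.0 CPM, with an interval that included equal levels (log2 -0.87, -1.86 to 0.015). Nr4a3, an orphan nuclear receptor induced by receptor signals, read 259 and 178 CPM. Klf6 was the higher one, at 521 and 676 CPM (log2 0.38, 0.17 to 0.58). Of 17 glucocorticoid-responsive genes, 4 were higher and 4 lower (median 0.05), with Sgk1, a kinase induced by corticosteroids, at 60.9 and 105 CPM (log2 0.78, 0.21 to 1.34). Of 13 mitochondrially encoded genes, 2 were higher and none lower (median -0.04). Cdkn1a, the p21 inhibitor of the cell cycle, read 109 CPM in 44 FL/FL members and 41.0 CPM in 14 ΔMAC members (log2 -1.41, -2.21 to -0.69), with log2 ratios of -0.59 in the other Cd4 T cells, -0.99 in naive-like Cd8 T cells and -0.27 in all other kept cells.

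Of 7 follicular helper genes, 2 were higher and 2 lower, and of 4 type 2 helper genes 1 was higher and 1 lower. Gata3, the factor of type 2 helper cells, read 98.4 and 70.6 CPM (log2 -0.48, -1.10 to 0.11). Of 5 type 17 helper genes, 4 were higher and none lower (median 0.84, and 0.75 without each gene's top member), with Maf at 163 and 248 CPM and Rora at 122 and 219 CPM. Of 5 Ly6 family genes, none was higher and 4 were lower (median -0.45), and the median of the same genes was -0.36 in naive-like Cd8 T cells and 0.47 in all other kept cells. Ly6a, the Sca-1 antigen, read 252 and 184 CPM (log2 -0.45, -0.83 to -0.09), and 179 and 170 CPM without members that had plasmacytoid or NK marker UMIs.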
